A study of Homo sapiens with 8 samples.

Results

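The contractile and stromal-type genes followed on 8 arrays were ACTA2, TAGLN, CNN1, MYL9, TPM1, TPM2, POSTN, FN1, SPARC and THY1. Each is covered by a probe set whose only gene symbol is that of the gene, and the probe set with the highest mean over the arrays stands for a gene. None of the 10 had more than 1 such probe set, so the choice did not arise, and all 10 were found among the 18417 genes measured this way. The list was chosen by the log2 values of these same arrays, so the levels and differences of the 10 genes are given as descriptions with no test.

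The members fall into a contractile and a matrix group. ACTA2 (smooth muscle actin), TAGLN (transgelin, an actin-bundling protein), CNN1 (calponin, which restrains actomyosin), MYL9 (a regulatory myosin light chain) and the tropomyosins TPM1 and TPM2 build or steer contractile actin filaments, and in smooth muscle and myofibroblasts many such genes are driven by serum response factor (SRF) through promoter elements called CArG boxes, with myocardin family coactivators. POSTN (periostin), FN1 (fibronectin) and SPARC are secreted into the matrix, where TGF-beta is a known inducer, and THY1 is a GPI-anchored surface protein of fibroblasts and other stromal cells. In carcinomas these genes are known from the surrounding fibroblasts and from tumour cells of mesenchymal character.

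Total RNA came from ovarian carcinoma cell lines grown in RPMI with fetal bovine serum and was hybridised to Affymetrix Human Gene 1.0 ST arrays, with 2 arrays in each of 4 groups. The groups were untreated A2780CP20, a subline of A2780 known for cisplatin resistance, A2780 given temsirolimus for 48 h, A2780 given temsirolimus for 24 h, and untreated A2780. Temsirolimus inhibits the kinase complex mTORC1; its stock was in DMSO, and no label says whether untreated cells received DMSO. Each line is a single cell line, so the arrays carry no spread between tumours, and nothing in the labels says that the 2 arrays of a group came from separate cultures.

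The arrays labelled 24 h stood apart from the other 6. Across genes they correlated at 0.950 to 0.952 with the arrays of other groups, whereas the 48 h arrays correlated with untreated A2780 at 0.994 to 0.996. The comparisons that use the 24 h arrays rest wholly on them and are given under their labels; the others are also given without them. The files do not settle whether these 2 arrays hold A2780 given temsirolimus for 24 h, so every 24 h difference below is one between arrays under that label and may not be an effect of the drug. The SD of log2 differences between the 2 arrays of a group was 0.287 for A2780CP20, 0.166 at 48 h, 0.169 at 24 h and 0.181 for untreated A2780. Array medians lay between 6.66 and 6.72 and lower quartiles between 5.03 and 5.13 log2 units. Of 13 epithelial and ovarian carcinoma markers, 10 lay below the median of all values in untreated A2780, CDH1 (E-cadherin) at 5.32 and EPCAM at 5.56 among them, so most of the markers that define an epithelial carcinoma were low there. Of 9 fibroblast markers, 3 lay below that median in untreated A2780 (PDGFRA, PDGFRB and DPT). The means of the 7 endothelial and of the 6 leukocyte markers lay between 5.16 and 5.74 on every array. Single markers lay higher: the endothelial CLDN5 (6.98 to 7.39) and the leukocyte CD68 (7.15 to 8.41) exceeded the array medians on all arrays.

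Promoter sequence was available for 7 of the 10 genes, in 9 windows, from RefSeq on GRCh38.p14. There was none for TAGLN, MYL9 and THY1, which were therefore not searched. The 4 printed here are shown because they hold a searched element and belong to genes described below: the 250 bases upstream of the start, 5' to 3' on the gene's strand, with matches in capitals. They lie at chr10:88952774-88953023 (minus strand, the second of 2 ACTA2 windows), chr13:37598769-37599018 (minus, POSTN), chr5:151686916-151687165 (minus, SPARC) and chr2:215436069-215436318 (minus, FN1).
ACTA2: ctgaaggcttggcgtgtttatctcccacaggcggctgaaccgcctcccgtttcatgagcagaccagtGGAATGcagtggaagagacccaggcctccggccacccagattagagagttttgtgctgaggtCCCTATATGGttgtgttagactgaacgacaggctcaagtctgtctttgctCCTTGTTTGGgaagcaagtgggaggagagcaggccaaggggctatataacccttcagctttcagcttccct
POSTN: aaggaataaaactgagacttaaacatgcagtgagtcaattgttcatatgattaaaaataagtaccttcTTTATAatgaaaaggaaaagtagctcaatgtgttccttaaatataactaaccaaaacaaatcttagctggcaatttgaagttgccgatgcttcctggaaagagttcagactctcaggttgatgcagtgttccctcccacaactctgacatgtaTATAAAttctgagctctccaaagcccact
SPARC: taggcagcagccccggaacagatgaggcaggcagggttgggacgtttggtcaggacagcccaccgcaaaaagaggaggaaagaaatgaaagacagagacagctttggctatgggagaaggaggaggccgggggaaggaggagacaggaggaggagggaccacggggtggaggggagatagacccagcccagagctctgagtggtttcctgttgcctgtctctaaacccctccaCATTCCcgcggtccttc
FN1: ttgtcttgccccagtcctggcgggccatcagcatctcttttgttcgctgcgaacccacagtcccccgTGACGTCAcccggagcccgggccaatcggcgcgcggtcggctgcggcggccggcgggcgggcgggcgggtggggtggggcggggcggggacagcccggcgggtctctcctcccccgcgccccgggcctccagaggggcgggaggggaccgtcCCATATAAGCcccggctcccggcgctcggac
Both strands were searched for the CArG box, the CArG box with 1 base off, a TEAD element, a TATA box and a cAMP response element, and no element was required to be free of overlap with another. None of the 9 windows held a full CArG box, which 1.16% of all 35116 promoter windows held. Sequence outside the 250 bases was not searched. The form with 1 base off, added after the strict search, occurred in 15.9% of all windows; ACTA2 held it at -121 to -112 and at -71 to -62 from the start, and FN1 at -31 to -22. The TATA box letters TATAAA, present in 10.7% of windows, lay at -29 to -24 in POSTN and on the opposite strand at -182 to -177. The TEAD element, searched as CATTCC and present in 11.9% of windows, lay at -17 to -12 in SPARC and on the opposite strand at -183 to -178 in ACTA2, and the cAMP response element TGACGTCA, in 1.65%, at -183 to -176 in FN1. The TPM1, TPM2 and CNN1 windows and the first ACTA2 window held none of these letters. A match describes the sequence and is not a bound site.

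Among the contractile genes, ACTA2 lay well below its level in untreated cells in A2780CP20 and on the arrays labelled 24 h. ACTA2 measured 11.54 and 11.64 log2 units in A2780CP20, 12.45 and 12.33 at 48 h, 11.60 and 11.58 on the arrays labelled 24 h, and 12.54 and 12.53 in untreated A2780. The A2780CP20 and 24 h arrays overlapped each other and lay about 1 log2 unit below untreated cells, while the 48 h arrays lay just below them. The difference from untreated A2780 was -0.95 ± 0.09 in A2780CP20, -0.15 ± 0.09 at 48 h and -0.95 ± 0.09 at 24 h (log2 difference of group means ± its standard error from limma, with 2 arrays in each group, as for all differences below). These standard errors use 1 spread per gene shared by all groups. The A2780CP20 arrays differed more from each other (SD 0.287) than those of the other groups, so the errors for A2780CP20 may be too small. ACTA2 is one of a set of near-identical actin genes, so its probes can also take up signal from the others. On the arrays labelled 24 h, ACTG2 differed from untreated cells by 0.08 ± 0.11, ACTC1 by 0.27 ± 0.10 and ACTA1 by -0.02 ± 0.11. None of them was called (limma adjusted p = 0.665, 0.0881 and 0.943). In A2780CP20 they differed by 0.02 ± 0.11, -0.145 ± 0.10 and 0.125 ± 0.11, again with none called (adjusted p = 0.914, 0.362 and 0.482). These relatives were named after their values were seen. What part other actins have in the ACTA2 values was not tested.

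TAGLN lay lower than in untreated cells in A2780CP20, as ACTA2 did, but higher on the 24 h arrays, where ACTA2 was lower. TAGLN measured 8.80 and 8.62 in A2780CP20, 9.48 and 9.39 at 48 h, 10.92 and 10.89 at 24 h, and 9.58 and 9.50 in untreated A2780. The 24 h arrays were the highest and the A2780CP20 arrays the lowest, with no overlap between any of the 4 groups, although the nearest arrays of 48 h and untreated cells, 9.48 and 9.50, almost met. TAGLN was thus 2.58-fold higher at 24 h (1.36 ± 0.10) and 1.78-fold lower in A2780CP20 (-0.83 ± 0.10) than in untreated A2780, against -0.11 ± 0.10 at 48 h.

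CNN1 and MYL9 varied less. CNN1 measured 7.04 and 6.67 in A2780CP20, 7.04 and 7.30 at 48 h, 7.46 and 7.51 at 24 h, and 7.37 and 7.31 in untreated A2780. Its A2780CP20 arrays were low and far apart from each other and overlapped the 48 h arrays at 7.04. MYL9 lay between 10.24 and 10.65 on all 8 arrays, and its A2780CP20 arrays alone spanned that whole range, so A2780CP20 has no place in an order of the groups; the 48 h arrays (10.43 and 10.30) lay below and the 24 h arrays (10.59 and 10.61) above the untreated ones (10.45 and 10.50) by little. The CNN1 difference from untreated A2780 was -0.49 ± 0.14 in A2780CP20, -0.17 ± 0.14 at 48 h and 0.15 ± 0.14 at 24 h.

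The tropomyosins TPM1 and TPM2, close paralogs that lie along the actin filament, differed in opposite directions. TPM1 measured 8.83 and 8.71 in A2780CP20, 9.23 and 9.23 at 48 h, 8.85 and 8.93 at 24 h, and 9.35 and 9.29 in untreated A2780. TPM2 measured 11.06 and 11.09 in A2780CP20, 11.05 and 10.95 at 48 h, 11.76 and 11.83 at 24 h, and 10.66 and 10.86 in untreated A2780. TPM1 was lowest in A2780CP20 and at 24 h, whose nearest arrays measured 8.83 and 8.85, and TPM2 was highest at 24 h with its lowest arrays in untreated cells. Against untreated A2780, TPM1 differed by -0.55 ± 0.09 in A2780CP20, -0.09 ± 0.09 at 48 h and -0.43 ± 0.09 at 24 h. TPM2 differed by 0.32 ± 0.10 in A2780CP20, 0.24 ± 0.10 at 48 h and 1.04 ± 0.10 at 24 h.

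POSTN had the widest range of the 10 genes. POSTN measured 8.47 and 8.87 in A2780CP20, 9.61 and 9.49 at 48 h, 12.14 and 12.14 on the arrays labelled 24 h, and 9.65 and 9.83 in untreated A2780. The 24 h arrays exceeded every other array by more than 2 log2 units, the A2780CP20 arrays were below all others, and 48 h and untreated cells lay next to each other. POSTN was 5.28-fold higher at 24 h (2.40 ± 0.14) and 2.1-fold lower in A2780CP20 (-1.07 ± 0.14) than in untreated A2780, and differed by -0.19 ± 0.14 at 48 h. The gene lies on chromosome 13, whose 184 genes at or above the median signal had a median difference of -0.42 on the 24 h arrays, against -0.01 for all such genes, so POSTN differed in sign from its chromosome's median there; 7 of the 184 were at least 2-fold higher. In A2780CP20 the chromosome's median was -0.22 against -0.02, and the part of this shift in the lower POSTN level was not tested.

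The other matrix and surface members varied less, and SPARC and THY1 lay lower on the 24 h arrays. SPARC, a collagen-binding glycoprotein, measured 8.20 and 8.28 in A2780CP20, 8.61 and 8.48 at 48 h, 8.01 and 8.15 at 24 h, and 8.49 and 8.55 in untreated A2780. Its 24 h and A2780CP20 arrays formed the low end, and the 48 h arrays overlapped untreated cells. SPARC differed from untreated A2780 by -0.28 ± 0.10 in A2780CP20, 0.03 ± 0.10 at 48 h and -0.44 ± 0.10 at 24 h.

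THY1 measured 10.03 and 10.23 in A2780CP20, 10.10 and 9.97 at 48 h, 9.25 and 9.39 at 24 h, and 10.07 and 10.00 in untreated A2780. Only the 24 h arrays were set apart, and the other groups overlapped. THY1 was 1.64-fold lower at 24 h (-0.72 ± 0.11), with 0.10 ± 0.11 in A2780CP20 and 0.00 ± 0.11 at 48 h. FN1 lay between 4.89 and 5.31 on all 8 arrays, around the lower quartile of all values, where signal over background is not known. The untreated arrays of FN1, at 5.28 and 4.89, spanned most of that range, and no level or order is given for it.

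**Figure D1:**
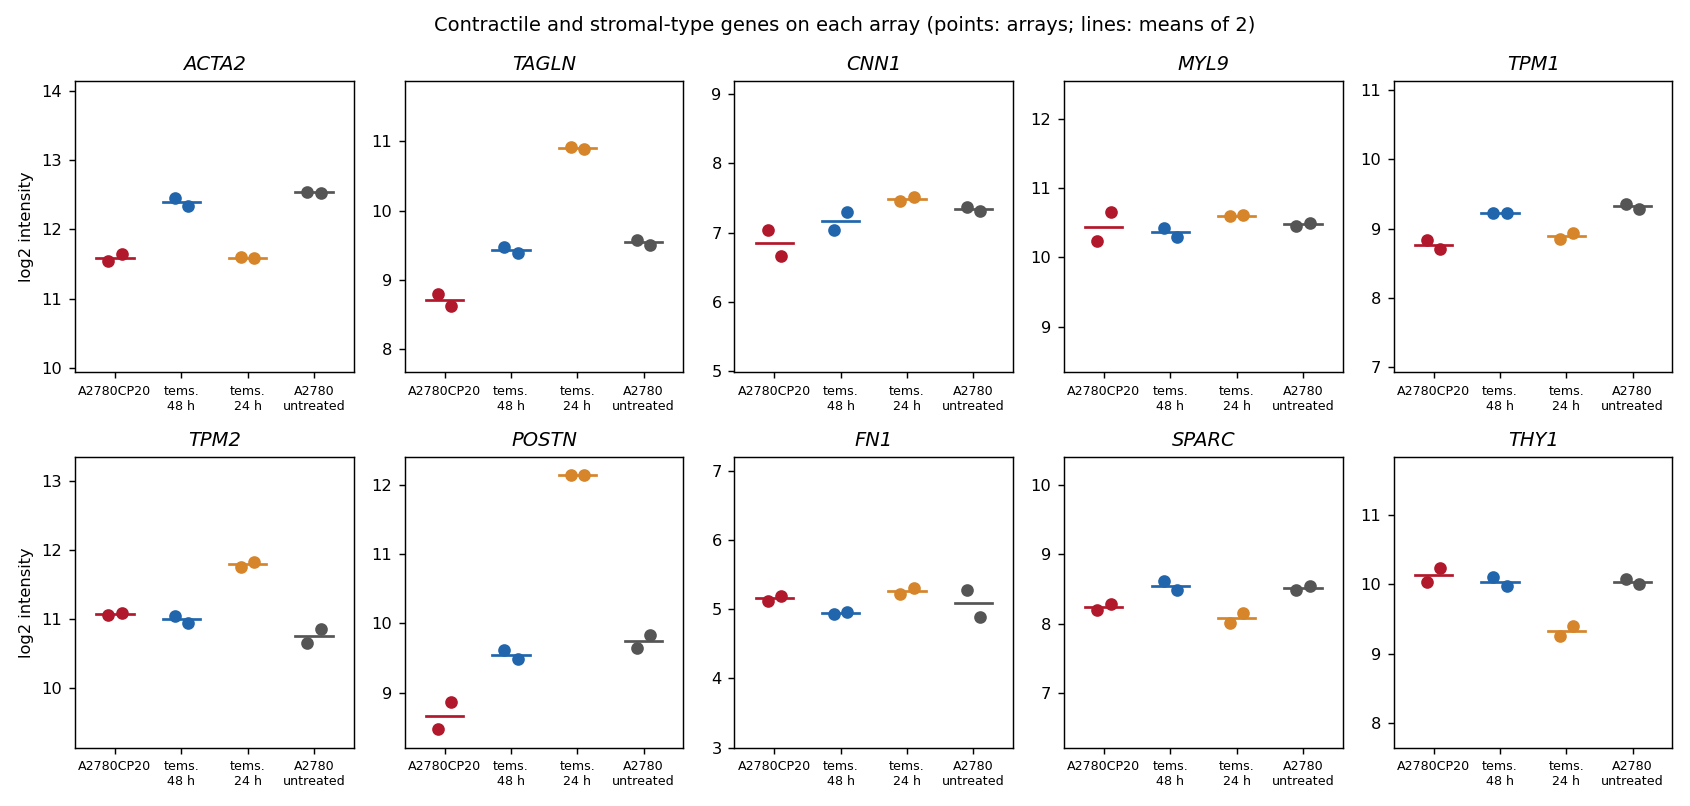
Log2 intensity of the 10 genes on each array, 1 panel per gene and the same span of log2 units in each; points are arrays and lines the means of 2. On the 24 h arrays POSTN, TAGLN and TPM2 stand above untreated A2780, and ACTA2, TPM1, SPARC and THY1 below it.

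Set side by side, the 10 genes lay mostly lower in A2780CP20 than in untreated A2780. Of the 10, 6 were lower with no overlap between the arrays of the groups (ACTA2, TAGLN, CNN1, TPM1, POSTN and SPARC), 1 was higher (TPM2) and 3 overlapped; over all genes 55.3% did not overlap, 28.3% higher and 27% lower. The median difference of the 10 was -0.38, against 0.03 for all genes. POSTN was the 1 member past 2-fold, as were 0.69% of all genes, 0.0326% higher and 0.657% lower. The counts of members in every comparison describe a list chosen with these values known, and nothing is read from their distance to the background.

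On the arrays labelled 24 h the members split. Higher without overlap were 5 (TAGLN, CNN1, MYL9, TPM2 and POSTN), 4 were lower (ACTA2, TPM1, SPARC and THY1) and FN1 overlapped; over all genes 66% did not overlap, 34.1% higher and 31.9% lower. The higher CNN1 and MYL9 values, 0.15 ± 0.14 and 0.13 ± 0.13, were about 1 standard error from 0. The median of 0.14 (0.01 for all genes) therefore describes neither group of members, and their median size of difference was 0.58 against 0.20 for all genes. Past 2-fold were TAGLN, TPM2 and POSTN, all higher, beside 6.41% of all genes, 2.88% higher and 3.53% lower.

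At 48 h the members lay close to untreated A2780. Without overlap, 6 were lower (ACTA2, TAGLN, CNN1, MYL9, TPM1 and POSTN) and 1 higher (TPM2), where 46.8% of all genes did not overlap, 27.2% lower and 19.6% higher. The differences ran only between -0.19 (POSTN) and 0.24 (TPM2), with a median of -0.11 against -0.03 for all genes. None passed 2-fold, which 0.0814% of all genes did, 0.0706% higher and 0.0109% lower. Between 48 h and 24 h, POSTN was 6.02-fold lower at 48 h (-2.59 ± 0.14), TAGLN 2.77-fold lower (-1.47 ± 0.10) and TPM2 1.74-fold lower (-0.80 ± 0.10), while ACTA2 was 1.74-fold higher (0.80 ± 0.09) and THY1 1.64-fold higher (0.72 ± 0.11). No member's arrays overlapped between these times, as was so for 69.3% of all genes, 29.7% higher and 39.6% lower at 48 h. POSTN and TAGLN passed 2-fold, beside 6.48% of all genes, 3.63% higher and 2.86% lower. The comparisons with untreated A2780 share its 2 arrays, and the last comparison shares arrays with both drug times.

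**Figure D2:**
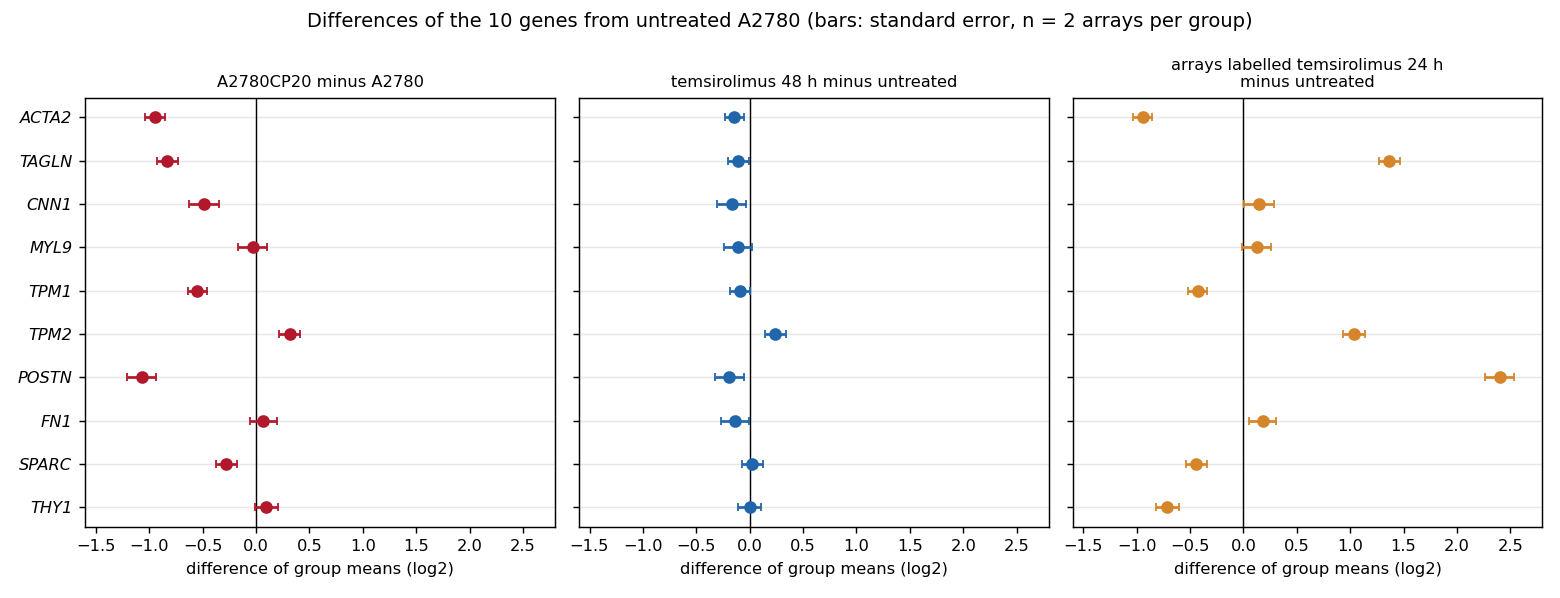
Difference of each gene from untreated A2780 in log2 units, for A2780CP20, 48 h and 24 h; points are differences of group means and bars their standard errors from limma, 2 arrays in each group. At 24 h POSTN reaches 2.40 and ACTA2 -0.95, whereas at 48 h all points lie between -0.19 and 0.24.

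The surrounding pathway was described with 5 lists of related genes, 109 genes with a single-symbol probe set in all, none of them a member. A gene was called at a limma adjusted p under 0.05 over all 18417 genes. Counts are given beside the share of all genes called in the same comparison, and the lists themselves were not tested. Since the lists were chosen with earlier results of these data known, nothing is read from the distance of a count to that share.

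In A2780CP20 the related genes that changed were led by lower stromal surface genes. MME, a cell-surface peptidase, fell by 0.99 ± 0.09, ALCAM, an adhesion molecule, by 0.94 ± 0.12, FAP, a fibroblast protease, by 0.88 ± 0.13, and DDR2, a collagen receptor kinase, by 0.70 ± 0.11 (limma adjusted p = 0.00136, 0.00244, 0.00456 and 0.00534). Of 17 stromal and mesenchymal markers 5 fell and none rose (29.4%, against 18.4% of all genes called). The list median was -0.04 (0.03 for all genes). The 9 fibroblast markers, some of them in this list, moved both ways. COL1A1 and DPT were called higher (0.375 ± 0.094 and 0.45 ± 0.107, limma adjusted p = 0.0274 and 0.0226). DCN and LUM were called lower (-0.785 ± 0.085 and -0.855 ± 0.17, adjusted p = 0.00176 and 0.0117), as were FAP and PDGFRA. The endothelial CLDN5 was called higher (0.35 ± 0.096, adjusted p = 0.038). No other fibroblast or endothelial marker and no epithelial or leukocyte marker was called. CALD1 (caldesmon, an actin-binding partner of tropomyosin) fell by 0.86 ± 0.09 (adjusted p = 0.00183). It measured 9.16 and 9.27 in A2780CP20 against 10.05 and 10.09 in untreated A2780. In the same list TAGLN2 and PDLIM7 rose by 0.48 ± 0.13 and 0.455 ± 0.11 (limma adjusted p = 0.0402 and 0.0211). Among regulators, SKIL, a repressor of SMADs, and TGFBR1, the type I TGF-beta receptor, fell by 0.70 ± 0.10 and 0.69 ± 0.11 (adjusted p = 0.0035 and 0.00483). The ligand gene TGFB1 rose by 0.69 ± 0.16 and SKI by 0.54 ± 0.10 (limma adjusted p = 0.0213 and 0.0104).

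Over the 5 lists 20 of 109 related genes were called in A2780CP20, 6 higher and 14 lower (18.3%), which is the background: 18.4% of all genes were called, 6.37% higher and 12% lower. Actomyosin relatives had 2 higher and 1 lower of 28, SRF and TGF-beta regulators 3 higher and 4 lower of 22, matrix glycoproteins 3 lower of 27, and integrins and syndecans 1 higher and 1 lower of 15. FBN1 (fibrillin), NID2 (nidogen) and CCN1, all matrix proteins, fell by 0.51 ± 0.09, 0.56 ± 0.11 and 0.62 ± 0.12, ITGAV, the alpha-v chain of periostin and fibronectin receptors, fell by 0.50 ± 0.10, and the syndecan gene SDC1 rose by 0.45 ± 0.10 (limma adjusted p = 0.00634, 0.0127, 0.0112, 0.0142 and 0.0208). The count was 18 when both 24 h arrays were dropped and 7 when the fit held A2780CP20 and untreated A2780 alone. Dropping the first untreated A2780 array left 8 calls, dropping the second left 10, and dropping the second A2780CP20 array gave 34. Of the 16 genes taken by the naming rule, 9 lost the call in the fit of those groups alone (limma adjusted p 0.0527 to 0.127), 8 lost it on dropping the first untreated array (0.0533 to 0.173) and 6 on dropping the second (0.068 to 0.121). MME, ALCAM, FAP, DDR2, CALD1, SKIL and TGFBR1 kept it under each of the alternatives run.

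On the arrays labelled 24 h, 5 of 22 SRF and TGF-beta regulators fell by more than 1 log2 unit: MYOCD, TGFB2, TGFBR1, TGFBR3 and SMAD3. Over all genes 3.53% were at least 2-fold lower. MYOCD, the SRF coactivator myocardin, measured 4.90 and 5.12 at 24 h against 7.73 and 7.64 in untreated A2780, a difference of -2.675 ± 0.21 on the log2 scale (limma adjusted p = 2.92e-05). TGFB2, a TGF-beta ligand, measured 6.21 and 6.25 against 9.20 and 9.16 (-2.95 ± 0.28, adjusted p = 8.36e-05). The receptor genes TGFBR1 and TGFBR3 fell by 1.41 ± 0.11 and 1.67 ± 0.14 (adjusted p = 2.18e-05 and 4.73e-05), and SMAD3, a TGF-beta signal transducer, by 1.32 ± 0.11 (adjusted p = 4.64e-05). In all, 10 of 22 regulators fell, 2 rose and 10 were not called, with a list median of -0.28 (0.01 for all genes). The share called was 54.5%, against 30.1% of all genes. The 2 that rose were SRF itself (0.47 ± 0.10, adjusted p = 0.00817) and ROCK1, a kinase that activates myosin (0.55, adjusted p = 0.00595), both named, like SMAD3, after their values were seen. The 24 h values of MYOCD lie near the lower quartile of the arrays, where signal over background is not known.

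Matrix glycoproteins showed both extremes at 24 h. Of 27 genes 33.3% were called, near the 30.1% of all genes. LOX, which crosslinks collagen and elastin, measured 5.48 and 4.77 at 24 h against 9.19 and 9.13 in untreated A2780 (-4.04 ± 0.22, limma adjusted p = 2.14e-06). The 24 h values of LOX lie around the lower quartile, so the size of this difference is uncertain. FBN1 measured 8.38 and 8.33 against 5.78 and 5.77, a rise of 2.58 ± 0.09 (adjusted p = 1.28e-07). It was the 1 gene of 27 that rose, while 8 fell, among them NID2 (-2.15 ± 0.11) and FBLN1, the matrix protein fibulin (-1.99 ± 0.10; adjusted p = 1.95e-06 and 1.34e-06). TGFBI, the paralog of POSTN, was not called (0.28 ± 0.13, adjusted p = 0.157).

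The actin-binding relatives changed in both directions at 24 h, 8 of 28 higher and 6 lower, with a list median of 0.03. This was 50% called, against 30.1% of all genes. FHL2, an SRF-interacting LIM protein, rose by 0.85 ± 0.10 and the tropomyosin gene TPM4 by 0.79 ± 0.09, while CALD1 fell by 0.80 ± 0.09 (limma adjusted p = 0.000274, 0.00032 and 0.000295). TPM4 measured 11.86 and 11.84 at 24 h against 11.07 and 11.06 in untreated A2780. CSRP1, a cysteine-rich LIM protein gene, rose by 0.55 ± 0.14 (adjusted p = 0.0186), a call that ended without either untreated array or either 24 h array (adjusted p 0.0669 to 0.096).

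Of 17 stromal and mesenchymal markers 7 fell at 24 h, 1, NT5E, rose (0.58 ± 0.12, limma adjusted p = 0.00727) and 9 were not called. Called were 47.1%, against 30.1% of all genes. MME measured 6.81 and 6.94 at 24 h against 10.75 and 10.77 in untreated A2780 (-3.89 ± 0.09, limma adjusted p = 2.15e-08). FAP fell by 2.8 ± 0.13, S100A4, a calcium-binding protein of motile fibroblasts, by 2.65 ± 0.17 and DDR2 by 1.84 ± 0.11 (adjusted p = 1.08e-06, 8e-06 and 4.9e-06). FAP averaged 4.49 at 24 h, under the lower quartiles of the arrays, and NT5E measured 5.18 and 4.91, so signal over background is not known for either there. VIM (vimentin), the intermediate filament of mesenchymal cells, was not called at 0.13 ± 0.09 (adjusted p = 0.353); NT5E, VIM and the TGFBI value above were named after they were seen. Of 15 integrins and syndecans 2 rose and 3 fell, 33.3% called, near the 30.1% of all genes. SDC2 and ITGB8 were higher by 0.94 ± 0.15 and 0.69 ± 0.15 (limma adjusted p = 0.00175 and 0.00757). SDC1 and ITGB1, the shared beta chain of fibronectin receptors, were lower (-0.73 ± 0.10 and -0.64 ± 0.10, adjusted p = 0.000844 and 0.00174). The ITGB8 call ended without A2780 temsirolimus 24 h replicate 2 (adjusted p = 0.0566).

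Over the 5 lists 48 of 109 genes (44%) were called at 24 h, 14 higher and 34 lower, against 30.1% of all genes, 14.9% higher and 15.3% lower. The mean of 9 fibroblast markers was 6.46 and 6.48 on the 24 h arrays against 8.87 and 8.91 on the untreated ones. Of these 9 markers 7 fell, and COL1A1 and DPT were not called. FAP, PDGFRA and PDGFRB also belong to the stromal list above, so the markers and that list are not separate results. The mean of 13 epithelial and ovarian markers was 6.57 and 6.68 against 6.26 and 6.33, of which EPCAM and KRT18 rose by 2.17 ± 0.11 and 2.94 ± 0.22, ESR1 fell by 0.49 ± 0.15 (limma adjusted p = 1.44e-06, 1.6e-05 and 0.0338) and the other 10 were not called. Endothelial markers averaged 5.52 to 5.65 against 5.59 and leukocyte markers 5.21 to 5.23 against 5.19 to 5.38. Among the leukocyte markers PTPRC was higher by 0.52 ± 0.10, and CD68 and CD163 were lower by 0.60 ± 0.14 and 0.395 ± 0.10 (limma adjusted p = 0.00447, 0.01 and 0.0162). The other leukocyte markers and all endothelial markers were not called. PTPRC and CD163 averaged 4.51 and 4.55 at 24 h, under the lower quartiles of the arrays. What part these shifts have in the member differences was not tested. The labels name cell lines and no tissue, and bulk RNA does not separate a change in all cells from one in part of them.

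**Figure D3:**
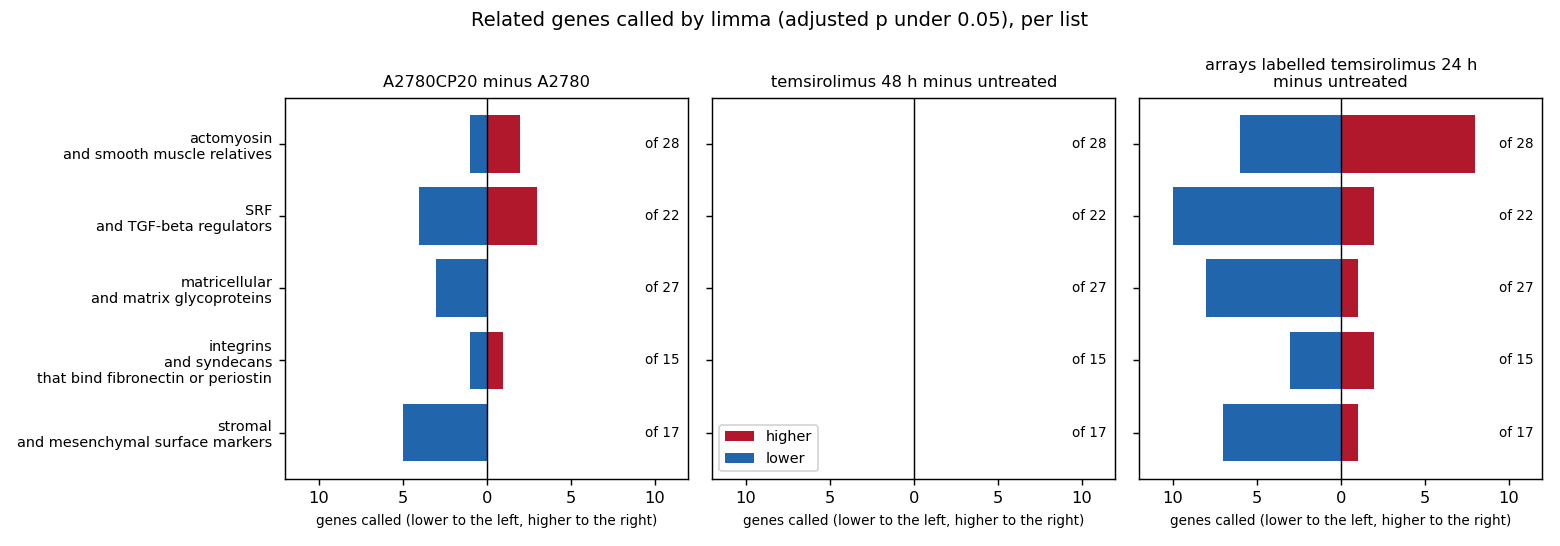
Number of related genes called by limma in each of 5 lists, lower to the left and higher to the right, with the number measured at the edge of each panel. On the 24 h arrays 34 were lower and 14 higher of 109, in A2780CP20 14 and 6, and at 48 h none in either direction.

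At 48 h none of the 109 related genes was called by limma (33 of 18417 genes were, 0.179%, with 0.163% higher and 0.0163% lower), and 16 had an unadjusted p under 0.05. The nearest was SKIL, 0.61 ± 0.10 higher than in untreated A2780 (adjusted p = 0.0783), which was called without either A2780CP20 array (adjusted p = 0.0472 each). Others by the naming rule were TAGLN3, a neuronal transgelin (-0.39 ± 0.12, adjusted p = 0.299), EFEMP2, a fibulin (0.40 ± 0.10, 0.201), ITGA5, the alpha chain of the main fibronectin receptor (0.15 ± 0.09, 0.612), and VIM (0.23 ± 0.09, 0.406). MYOCD measured 7.65 and 7.75 at 48 h against 7.73 and 7.64 in untreated A2780, and FBN1 5.67 and 5.73 against 5.78 and 5.77. Without both arrays labelled 24 h the count was again 0.

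Between 48 h and 24 h, 46 of 109 related genes were called, 29 higher at 48 h and 17 lower (42.2%, against 31% of all genes, 15.2% higher and 15.7% lower). The regulators had 8 higher and 3 lower of 22 and matrix glycoproteins 8 and 3 of 27. Stromal and mesenchymal markers had 7 and 2 of 17, and integrins and syndecans 2 and 2 of 15. Actomyosin relatives had 4 higher and 7 lower of 28. MYL6, a myosin essential light chain, was the 1 gene named by the rule here and not at 24 h, at -0.54 ± 0.10 (limma adjusted p = 0.00409). The count was 30 without A2780 temsirolimus 24 h replicate 2.

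**Figure D4:**
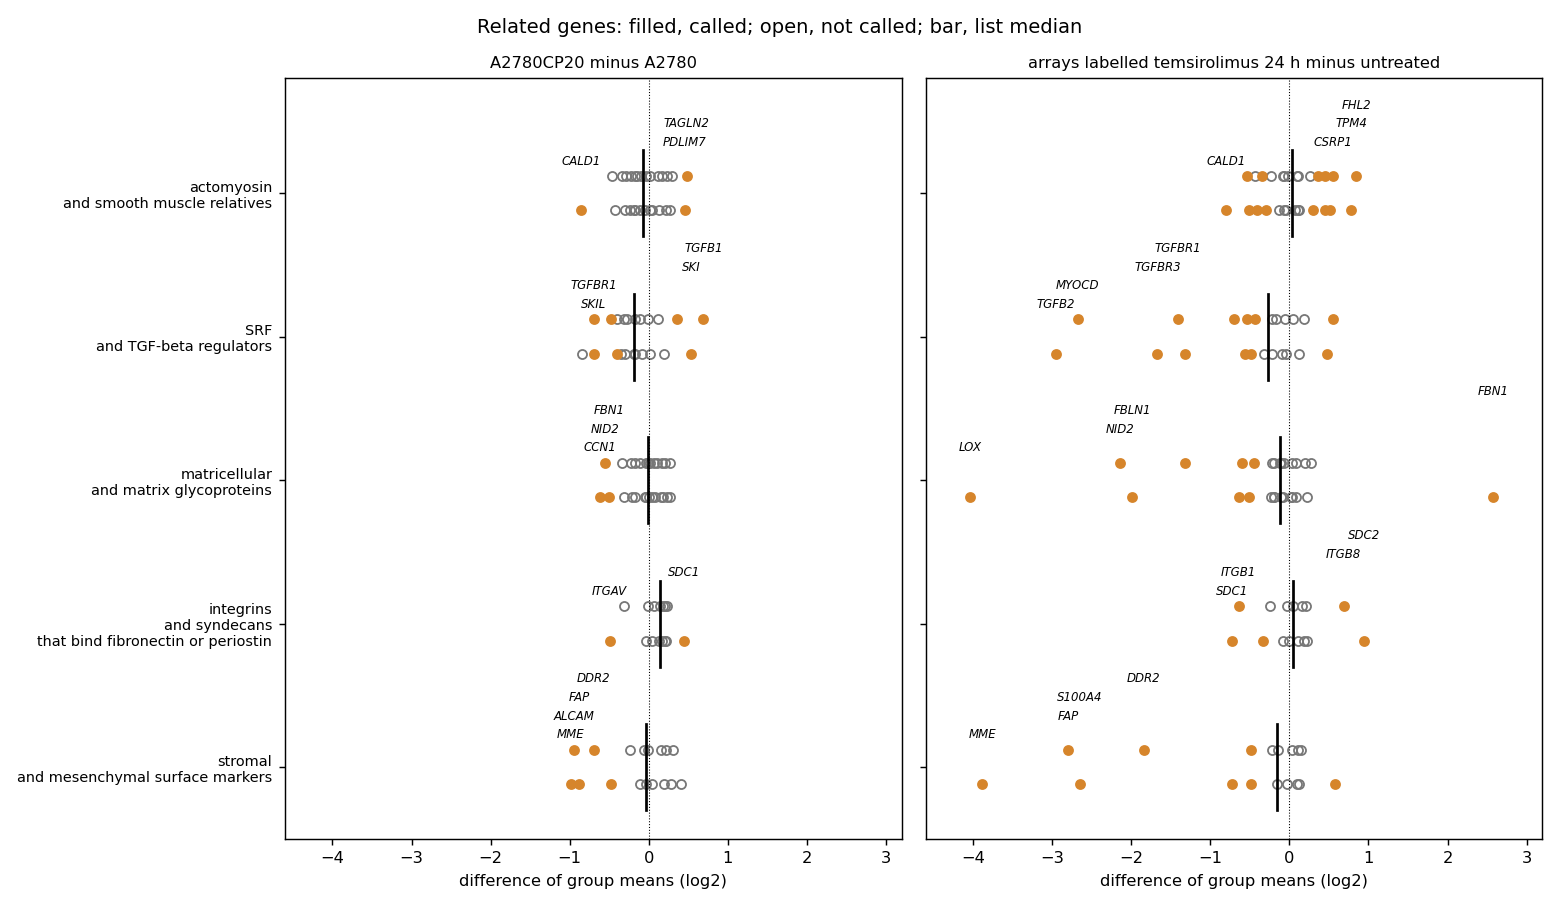
Log2 differences of the related genes by list in A2780CP20 and at 24 h, each against untreated A2780; filled points were called, open points were not, bars are list medians and names mark genes taken by the naming rule. LOX, dim at 24 h, at -4.04 and FBN1 at 2.58 bound the values there, and in A2780CP20 none of the named genes passes 1 log2 unit.

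For 3 members, POSTN, TAGLN and TPM2, the group means were at least 1 log2 unit apart, and for these the genes with the most similar pattern were found by Pearson's r over the 8 arrays. For POSTN they were PEX3, MAT2B and EPHA5 (r = 0.9973, 0.9958 and 0.9956), for TAGLN KATNAL1, MAP3K20 and MNAT1 (0.9959, 0.9957 and 0.9951), and for TPM2 LRRC59, DUSP3 and HSP90AA2P (0.9946, 0.9940 and 0.9929). EPHA5, an ephrin receptor gene, measured 6.16 in A2780CP20, 6.67 at 48 h, 8.23 at 24 h and 6.72 in untreated A2780 (group means). The arrays share a group in pairs and the 24 h arrays carry most of the spread, so r is high for many genes: 93 exceeded 0.98 for POSTN, 52 for TAGLN and 27 for TPM2.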

How the data were processed

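The deposited table holds 1 value per probe set and array, 33297 probe sets on 8 arrays; from their range, 1.8 to 14.99, and their like medians the deposited values were read as log2 intensities. Per the submitters' processing notes Partek was used, without a version or a step; the sources used here do not give the background correction, normalization or probe summary. Values have 2 decimals. The number of arrays limits the precision.

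Groups and replicate numbers came from the sample titles. Platform annotation gave 19460 probe sets 1 symbol, 1754 several and 12083 none here; the highest-mean probe set per symbol left 18417 genes. limma version 3.58.1 in R version 4.3.3 was fitted to all 8 arrays with 1 coefficient per group (residual degrees of freedom 4, prior 4.48), each test two-sided with p adjusted by Benjamini-Hochberg over 18417 genes, and was tested on simulated data. These p-values reflect spread between arrays alone, which may be technical.

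The members and the lists of related and marker genes were chosen with earlier results of these data known. Genes named from the related lists were, per list and comparison, up to 4 called genes with the largest difference and no overlap between arrays, or else the gene with the smallest p. TPM3, FLNA, FLNC, MRTFA, SDC4 and HLA-DRA were not analysed here. Alternatives were quantile normalization, median centring, a filter on the dimmest 25% of genes, a mean over each gene's probe sets, a prior with an intensity trend, a replicate block, only the 2 groups compared, no 24 h arrays, and leaving out each array. The RefSeq tables gave chromosomes and promoters (GRCh38.p14).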

Additional observations from a re-analysis of the deposited data

Results flagged for a closer look

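The change from untreated A2780 differed between the 2 drug times for each of the 20 related genes named and called at 24 h, by limma's test of 48 h against 24 h (adjusted p from 2.65e-08 for MME to 0.0255 for CSRP1). These genes were picked for large differences on the same 24 h arrays, and the 48 h arrays were close to untreated A2780, so this outcome was largely set by the choice. The 48 h minus 24 h difference in log2 units was positive, from a fall at 24 h, for LOX (4.17), MME (3.66), FAP (2.85), MYOCD (2.69), TGFB2 (2.66), S100A4 (2.41), FBLN1 (1.85), NID2 (1.81), TGFBR1 (1.66), DDR2 (1.61), TGFBR3 (1.27), ITGB1 (0.74), CALD1 (0.69) and SDC1 (0.65). The 24 h values of LOX, FAP and MYOCD lie around or below the lower quartile of the arrays, so the sizes for these are uncertain. The difference was negative, from a rise at 24 h, for FBN1 (-2.66), SDC2 (-1.09), FHL2 (-0.96), ITGB8 (-0.68), TPM4 (-0.61) and CSRP1 (-0.51). The ITGB8 call ended without A2780 temsirolimus 24 h replicate 2 (adjusted p = 0.0588) and without A2780 temsirolimus 48 h replicate 1 (0.0682).

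In 4 members both 48 h arrays lay below and both 24 h arrays above the untreated A2780 arrays. Over all genes 27.2% were lower without overlap at 48 h and 34.1% higher at 24 h. The share of all genes with both was not counted, and nothing is read from the count of members. The 48 h minus 24 h differences were -2.59 for POSTN, -1.47 for TAGLN, -0.32 for CNN1 and -0.24 for MYL9, and these differences between the times were not tested, since the genes were chosen with their values known. The POSTN, TAGLN, CNN1 and MYL9 group means at 48 h were within 0.19 log2 units of untreated cells. For CNN1 and MYL9 the differences from untreated A2780 were about 1 standard error in size at both times. They were -0.17 ± 0.14 and -0.11 ± 0.13 at 48 h, and 0.15 ± 0.14 and 0.13 ± 0.13 at 24 h.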

How the results depend on the processing

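The median member difference kept its sign under quantile normalization, median centring, the mean of probe sets, the replicate block and without any single array, at -0.43 to -0.31 in A2780CP20, 0.05 to 0.15 at 24 h, -0.11 to -0.06 at 48 h and -0.29 to -0.24 between 48 h and 24 h on leaving out arrays. Quantile normalization turned the sign of MYL9 in A2780CP20 (main value -0.03), and THY1 at 48 h, 0 as deposited, took a sign with either scaling; the largest move of any member with them was 0.073. Leaving out single arrays turned the sign of FN1 in all 3 comparisons with untreated A2780 (-0.125 in A2780CP20, 0.055 at 48 h, -0.015 at 24 h), of MYL9 and THY1 in A2780CP20 (0.175 and -0.005) and of SPARC at 48 h (-0.04 and -0.005). With only the 2 groups compared, A2780CP20 had 7 related genes and 1022 of all genes called, against 20 and 3388. At 48 h an intensity trend in the prior gave 1 related gene (SKIL) and 68 genes, against 0 and 33, and leaving out the dimmest 25% also gave 1. Leaving out single arrays gave 8 to 34 related genes and 974 to 5543 genes in A2780CP20, 33 to 51 and 3621 to 6895 at 24 h, 0 to 1 and 4 to 57 at 48 h, and 30 to 53 and 3715 to 7154 between 48 h and 24 h. The causes were not tested. The titles number replicates 1 and 2 in each group, but no label says that a number marks shared material, and deviations of same-numbered arrays correlated at 0 to 0.18. With the replicate block 23, 47, 0 and 45 related genes were called for A2780CP20, 24 h, 48 h and 48 h against 24 h, with 3555, 5642, 35 and 5885 of all genes, and no count moved by over 1.5 times.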
